A study of Mus musculus with 12 samples.

Results

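The NIPSNAP family is a small group of nuclear genes for mitochondrial proteins. Its members in the liver count table were Gbas (now named Nipsnap2), Nipsnap1 and Nipsnap3b, 3 of the 46882 gene names listed. They were selected on their values in the comparison described here, A1cf -/- livers against wild-type livers. The sizes of their differences are therefore a description, and nothing is read from their passing a threshold over all genes. NIPSNAP1 and NIPSNAP2 are imported into the mitochondrial matrix of healthy mitochondria. In human cells whose mitochondria have lost their membrane potential, both collect on the outer membrane and recruit autophagy receptors and ATG8 proteins, which mark the organelle for removal by mitophagy. NIPSNAP1 has also been found with the branched-chain ketoacid dehydrogenase, the mitochondrial enzyme complex of branched-chain amino acid breakdown, while less is known of NIPSNAP3B.

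RNA was sequenced from livers of C57BL/6 mice aged 6 to 8 weeks, 6 of genotype A1cf -/- (KO) and 6 wild-type (WT), which the submitters describe as biological replicates. A1cf encodes an RNA-binding cofactor of the APOBEC1 mRNA editing enzyme. Each library is named here by its genotype and the number in its label, and no other treatment is given. How the A1cf allele was made and in which cells it is absent are not given in the sources used here. Counts of read pairs per gene summed to 22129092 to 51082317 in KO libraries and to 25898171 to 40597491 in WT libraries. Levels below are CPM, the counts of a gene relative to a library size scaled by TMM, and 13706 genes had enough counts to be tested. A1cf itself averaged 10.6 ± 1.5 CPM in KO livers and 50.9 ± 2.3 CPM in WT livers (SD, n = 6 each), so that KO livers kept 20.9% of the WT level.

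The sequence just upstream of the family genes is shown for the members whose groups separated, Gbas upward and Nipsnap3b downward, with a short element that both hold. The windows come from RefSeq on GRCm38.p6, plus strand, and capitals mark GC boxes (GGGCGG on either strand). That of Gbas is chr5:129724825-129725062, which stops before the first deposited exon and so short of the RefSeq start site at 129725075, and that of Nipsnap3b is chr4:53011630-53011879.
Gbas: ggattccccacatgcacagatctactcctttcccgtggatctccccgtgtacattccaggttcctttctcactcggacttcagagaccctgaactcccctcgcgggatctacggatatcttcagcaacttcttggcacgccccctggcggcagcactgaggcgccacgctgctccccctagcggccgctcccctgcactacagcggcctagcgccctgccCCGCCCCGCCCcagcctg
Nipsnap3b: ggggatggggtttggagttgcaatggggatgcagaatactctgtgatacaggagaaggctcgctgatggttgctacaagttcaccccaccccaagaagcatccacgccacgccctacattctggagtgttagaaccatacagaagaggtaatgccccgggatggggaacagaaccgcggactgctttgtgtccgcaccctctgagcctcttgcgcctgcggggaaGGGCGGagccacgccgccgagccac
All 4 family genes of the annotation, including Nipsnap3a, were matched in that table. In the 250 bases before the start site, Gbas had 2 GC boxes, at -30 and -25 and overlapping each other, and Nipsnap3b had 1, at -25, each counted from the RefSeq start site. Nipsnap1 had none, while Nipsnap3a, which had no counts here, had 1 at -149. A GC box stood in 32.7% of 32851 mouse promoter windows of the same length, so its presence is a description only. The GC content of the window was 65.6% for Gbas, 59.2% for Nipsnap3b and 48.8% for Nipsnap1, against a median of 52.4% over all windows. The observed over expected CpG ratio was 0.738 for Gbas, 0.596 for Nipsnap3b and 0.442 for Nipsnap1, against a median of 0.373. A TATAAA stood at -241 of Nipsnap1, and 12.4% of all windows held one. None of the 3 held CCAAT (33.8% of all windows), TGCGCA (6.43%), CACGTG (6.02%), TGACG (17.8%) or AAGGTCA (4.08%), searched on both strands.

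Since A1CF is known to bind AU-rich RNA, the 3′ UTRs of the GENCODE M21 transcripts were searched on the sense strand for TAATTA and TAATTG, the DNA letters of its known in vitro preference. Nipsnap3b held 2 matches in a UTR of 700 bases, and the 30 bases around each, both on chromosome 4, are shown with the match in capitals.
Nipsnap3b, match at 487: ttagaaaagtatTAATTAtggtttcacatt
Nipsnap3b, match at 580: tgtgtttgttttTAATTGcttgtactactt
Positions count from the stop codon. Of 2272 mouse 3′ UTRs within 20% of that length, 30.1% held at least 1 match and 8.89% at least 2. Gbas held 0 matches in 1184 bases, where 45% of 2778 UTRs of like length held one, and Nipsnap1 held 0 in 1016 bases, where 42.1% of 2684 did. The compared UTRs were matched by length and not by base content. The share of A and T was 66.6% in the UTR of Nipsnap3b, 58% in that of Gbas and 53.8% in that of Nipsnap1. A match or its absence is a description of the letters only.

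Gbas stood higher in every KO liver than in any WT liver. The gene lies on chromosome 5 at 129725063 to 129758327, plus strand (mm10, deposited positions). Its level in KO livers ran from 42.0 CPM in KO 602 through a median of 48.7 to 56.1 CPM in KO 574, against 13.1 CPM in WT 573 through a median of 15.4 to 18.9 CPM in WT 778. The groups did not overlap: the lowest KO liver was above the highest WT liver. Gbas averaged 49.4 ± 5.2 CPM in KO livers and 15.6 ± 2.3 CPM in WT livers (SD, n = 6 each), a log2 fold change of 1.66 (SE 0.10) or 3.16-fold. These levels rested on 962 to 2372 counts per KO library and 350 to 539 per WT library. Of 13706 tested genes, Gbas had the 43rd highest log2 fold change, and among the 7394 with a mean of at least 10 CPM 6 stood higher. Gbas was chosen by this contrast, so nothing is read from its rank.

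Nipsnap3b ran the other way and by less. It lies on chromosome 4 at 53011880 to 53022060, plus strand. Its level in KO livers ran from 33.2 CPM in KO 780 through a median of 37.7 to 46.2 CPM in KO 584, against 51.8 CPM in WT 776 through a median of 54.6 to 62.9 CPM in WT 573. Here too the groups did not overlap, with every KO liver below every WT liver. Nipsnap3b averaged 38.6 ± 4.9 CPM in KO livers and 56.0 ± 4.1 CPM in WT livers (SD, n = 6 each), a log2 fold change of -0.54 (SE 0.09), which left KO livers at 68.8% of the WT level. It stood 322nd from the lowest log2 fold change among all tested genes, a rank from which likewise nothing is read.

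Nipsnap1, the most abundant member, differed by less than the spread between livers. It lies on chromosome 11 at 4873951 to 4894200, plus strand. Its level in KO livers ran from 207 CPM in KO 602 through a median of 237 to 259 CPM in KO 588, against 221 CPM in WT 776 through a median of 258 to 270 CPM in WT 601. The ranges of the groups overlapped over most of their length. Nipsnap1 averaged 237 ± 20.6 CPM in KO livers and 253 ± 18.7 CPM in WT livers (SD, n = 6 each). The log2 fold change was -0.09 (SE 0.08), beside a pooled SD of 0.12 between livers of a genotype on the same log2 scale.

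**Figure D1:**
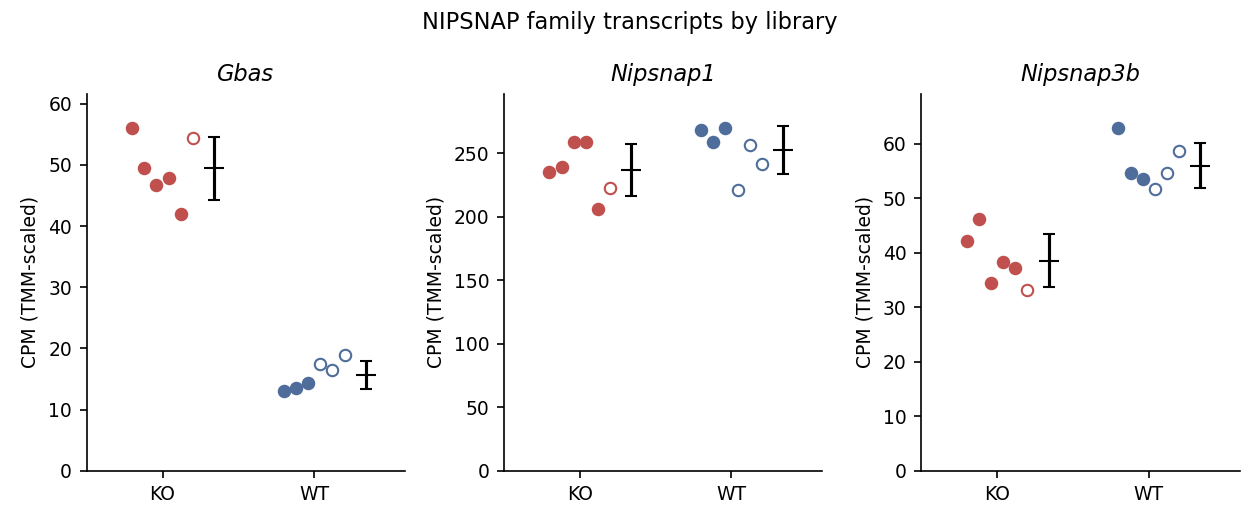
Level of each family member in every library, as TMM-scaled CPM on axes that start at 0, with KO livers in red and WT livers in blue. Filled points are libraries numbered 573 to 602, open points those numbered 776 to 780, and the bar beside each group is its mean ± SD (n = 6). Gbas KO points lie at 42.0 to 56.1 CPM, all above the WT points, Nipsnap3b KO points all lie below the WT points, and the Nipsnap1 groups overlap.

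Of the 3 members, 2 passed an adjusted p of 0.05 in edgeR's quasi-likelihood test over all genes, Gbas as higher and Nipsnap3b as lower in KO livers, and the same 2 did not overlap between groups. Among all 13706 tested genes 523 passed, or 3.82%, with 1.72% higher and 2.09% lower in KO livers, and 3.3% of tested genes had groups that did not overlap. Scaled by library totals only, 266 genes were higher and 139 lower, against 236 higher and 287 lower. The members were chosen by this contrast, so nothing is read from their share.

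Nipsnap3a, the other family gene in the table, lies 10.72 kb before Nipsnap3b on the same strand of chromosome 4. It had 0 counts in each of the 12 libraries, and 0 counts leave room for as many as 3, which is 0.059 to 0.131 CPM depending on the library. No stretch of 50 bases of the longest coding transcript of Gbas, Nipsnap1, Nipsnap3b or Nipsnap3a was found in a transcript of another gene (GENCODE M21). Only exact matches were searched, so a copy with mismatches in each such stretch would not have been seen. The exons of no other annotated gene overlapped those of Gbas, Nipsnap1 or Nipsnap3b. An unspliced read could still be counted elsewhere: Gm15903 lies inside the Gbas gene on the same strand and had 62 counts over all libraries.

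Levels of different genes are compared per kilobase of exonic length (FPKM), which is 2750 bases for Gbas and 1687 for Nipsnap3b. Their longest coding transcripts have 2112 and 1552 bases, so ratios and shares between genes depend on the length used. Nipsnap1 was the highest member in all 12 libraries, at 89.5 ± 7.8 FPKM in KO livers and 95.4 ± 7.1 FPKM in WT livers (SD, n = 6 each). Nipsnap3b followed at 22.9 ± 2.9 FPKM in KO livers and 33.2 ± 2.4 FPKM in WT livers. Gbas was the lowest, at 17.97 ± 1.89 FPKM in KO livers and 5.68 ± 0.84 FPKM in WT livers. In WT livers the levels of neighbours in this order did not overlap. In KO livers those of Nipsnap3b and Gbas did: Nipsnap3b was above Gbas in 5 of 6, and the exception was KO 780, with 19.7 FPKM of Nipsnap3b and 19.8 FPKM of Gbas.

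The ratio of Gbas to Nipsnap3b per length was 0.795 ± 0.124 in KO livers, between 0.657 and 1.007, and 0.172 ± 0.030 in WT livers, between 0.128 and 0.207. Gbas made up 13.8 ± 1.4% of the summed family level in KO livers and 4.26 ± 0.82% in WT livers (SD, n = 6 each). The share of Nipsnap3b was 17.6 ± 2.0% in KO livers and 24.7 ± 1.3% in WT livers. Nipsnap1 held 68.6 ± 2.5% in KO livers and 71.0 ± 1.8% in WT livers, with overlapping ranges. The summed level itself was 130 ± 8.9 FPKM in KO livers, between 115 and 138, and 134 ± 7.8 FPKM in WT livers, between 120 and 143. The ranges of the Gbas and Nipsnap3b shares did not overlap between genotypes, whereas those of the summed level did.

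**Figure D2:**
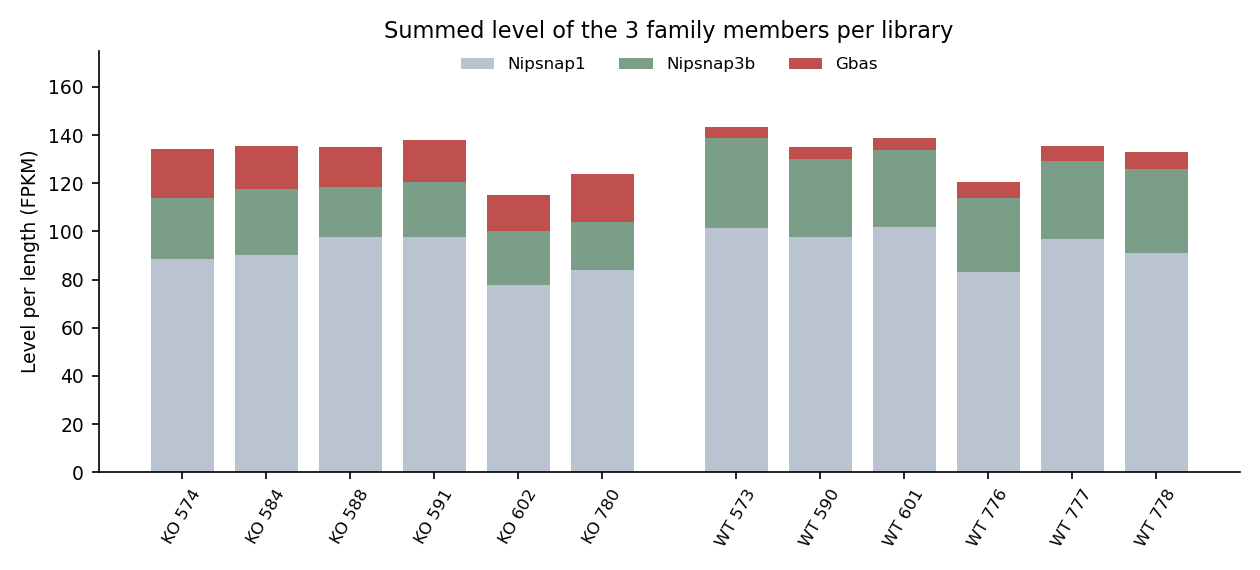
Level per length (FPKM) of Nipsnap1, Nipsnap3b and Gbas stacked for each library, with KO livers left of WT livers and the axis starting at 0. The bars reach 115 to 138 FPKM in KO livers and 120 to 143 FPKM in WT livers, and the red Gbas segment is 12.6 to 16.01% of the bar in KO livers and 3.32 to 5.27% in WT livers.

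Within a genotype the members varied little. The coefficient of variation of Gbas was 10.5% in KO livers and 14.8% in WT livers, while counting error alone would give 2.75% in KO livers and 4.77% in WT livers. That of Nipsnap3b was 12.6% in KO livers and 7.28% in WT livers. That of Nipsnap1 was 8.68% in KO livers and 7.39% in WT livers. The pooled SD of log2 CPM within a genotype was 0.12 for Nipsnap1, 0.15 for Nipsnap3b and 0.18 for Gbas, at the 11th, 20.6th and 34.6th percentile of all tested genes, where a low percentile means a steady gene.

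The library numbers fall in 2 ranges, 573 to 602 with 5 KO and 3 WT livers and 776 to 780 with 1 KO and 3 WT livers, and the labels do not say what the numbers mark. Gbas in the 3 WT livers of each range was 13.1 to 14.4 CPM in the first and 16.4 to 18.9 CPM in the second. These did not overlap, but with so few livers the difference was not tested. The difference of Gbas between KO and WT livers, in mean log2 CPM, was 1.81 within the first range and 1.63 within the second. For Nipsnap3b it was -0.53 in the first and -0.73 in the second. For Nipsnap1 it was -0.15 in the first and -0.10 in the second. Each member had the same direction in both ranges, the second of which holds a single KO liver. For Gbas and Nipsnap3b this was fixed beforehand, since their groups did not overlap.

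**Figure D3:**
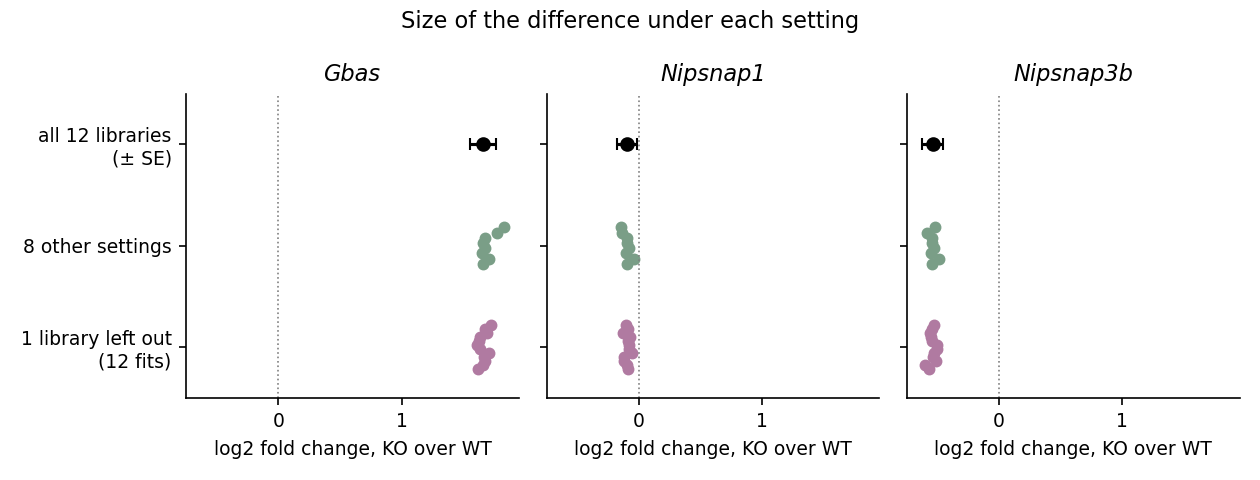
Log2 fold change of each member, KO over WT, in the fit of all 12 libraries (black, ± SE), in 8 other settings of scaling, filter, tool, covariate or libraries (green), and in 12 fits that each leave out 1 library (purple), on a shared axis. Gbas stays between 1.61 and 1.83, Nipsnap1 between -0.14 and -0.04, and Nipsnap3b between -0.60 and -0.49.

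Livers of a genotype with more of one member did not detectably have more or less of another. Pearson's r of log2 CPM was computed for 6 relations, each pair of members in each genotype (n = 6, two-sided exact permutation tests). The strongest was Gbas with Nipsnap1 in WT livers, with r = -0.75 (exact permutation p = 0.08056, adjusted over the 6 p = 0.4834), Spearman's rho = -0.77 (exact p = 0.1028, adjusted p = 0.6168) and r = -0.76 without the 2 libraries farthest from the median of Gbas. Its WT livers lie in the 2 number ranges, whose few WT livers did not overlap in Gbas. A range holds too few livers for a value of its own. In KO livers the same pair had r = 0.16 (exact permutation p = 0.75) and rho = -0.09 (exact p = 0.9194), and r = -0.96 without 2 livers, so that its sign rests on them. The other 4 relations had r between -0.28 and 0.43, rho between -0.37 and 0.26 and adjusted exact permutation p-values of 0.8736 for r and 0.9194 for rho.

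Of 46 other genes within 200 kb of a member, 21 could be tested, their median log2 fold change was -0.03, and 1 passed the threshold, beside 3.82% of all tested genes. Of the 12 tested around Gbas, DESeq2 called 3, limma-voom 1, and 3 had an unadjusted p under 0.05. Over all 13706 tested genes DESeq2 called 1172, limma-voom called 562, and 21.2% had an unadjusted p under 0.05. The nearest tested gene to Gbas, Mrps17, which encodes a protein of the mitochondrial ribosome and ends 2.507 kb before it, had 42.5 ± 1.8 CPM in KO livers and 40.1 ± 3.6 CPM in WT livers (SD, n = 6 each). Its log2 fold change was 0.08 (SE 0.07, edgeR adjusted p = 0.513). Psph, the phosphatase of the last step of serine synthesis, lies 7.231 kb after Gbas and was at -0.03 (SE 0.13, edgeR adjusted p = 0.919). Cct6a, a subunit of the cytosolic chaperonin, was at -0.27, Sumf2 at -0.29, the zinc finger gene Zfp11 at -0.03 and the matrix metalloproteinase gene Mmp17 at -0.31, with edgeR adjusted p-values of 0.2459, 0.08123, 0.9507 and 0.5625. The 1 neighbour past the threshold was Gm42979, an unnamed gene model 166.7 kb before Gbas inside the span of Sfswap, with 1.68 ± 0.34 CPM in KO livers and 0.839 ± 0.356 CPM in WT livers. Its log2 fold change was 0.99 (SE 0.25, edgeR adjusted p = 0.04673), and the call was lost in 10 of 12 fits without 1 library (adjusted p 0.005378 to 0.3391 over all alternatives). With the number range as covariate its adjusted p was 0.05549, and the neighbour called in its place was Nupr1l, at 0.92 (adjusted p = 0.01451). DESeq2 called Gm42979, Nupr1l (0.72) and Sumf2 (-0.30). Nupr1l was named after its values were seen.

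Around Nipsnap1, 8 genes were tested and 0 passed in edgeR, 0 in DESeq2 and 0 in limma-voom, while 1 had an unadjusted p under 0.05. That one was Thoc5, a subunit of the mRNA export complex THO 1.12 kb after Nipsnap1, at -0.24 (SE 0.09, edgeR adjusted p = 0.1498). The log2 fold changes of the others named were -0.13 for Nf2, -0.08 for Ap1b1, -0.04 for Zmat5, -0.18 for Gas2l1 and 0.01 for Uqcr10, a complex III subunit. The signs of Zmat5 and Uqcr10, like those of Mrps17, Psph and Zfp11 beside Gbas, depended on the setting. Nipsnap3b had 1 tested neighbour, the cholesterol exporter gene Abca1, which lies 8.727 kb away on the other strand. Abca1 averaged 150 ± 26.4 CPM in KO livers and 118 ± 13.6 CPM in WT livers (SD, n = 6 each), a log2 fold change of 0.35 (SE 0.12, edgeR adjusted p = 0.1183) opposite in sign to that of Nipsnap3b. Without KO 591 its adjusted p was 0.0442.

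**Figure D4:**
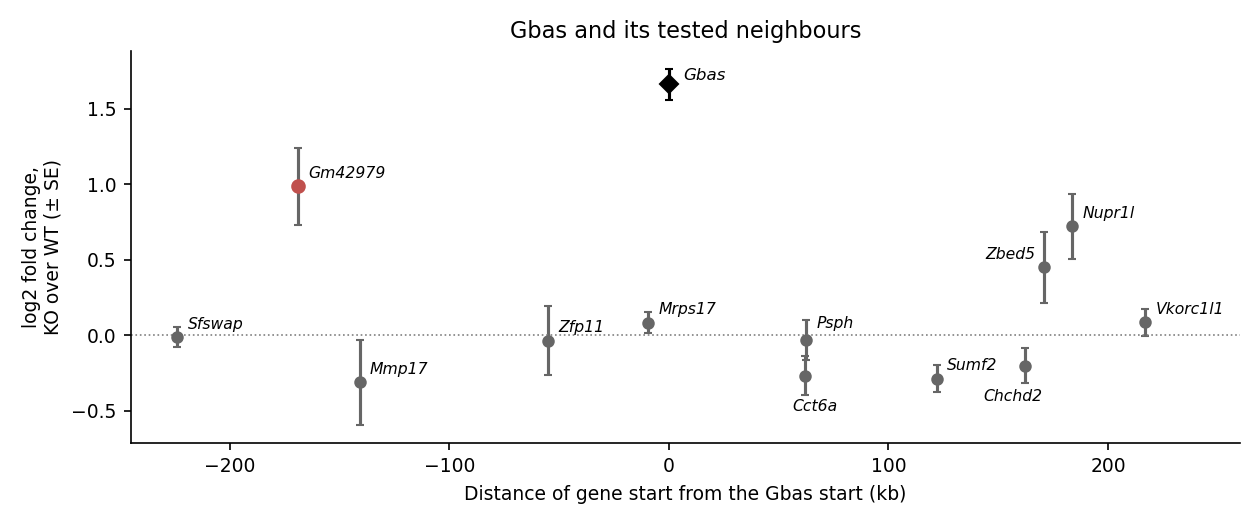
Log2 fold change, KO over WT, with its SE (n = 6 each) for Gbas (black diamond) and its 12 tested neighbours, against the distance in kb of each gene's start from that of Gbas. Red marks the 1 neighbour past the threshold, Gm42979, at 0.99. The nearest, Mrps17, is at 0.08. Gbas, which was chosen by this contrast, is at 1.66.

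Genes with which NIPSNAP proteins are known to act, or which serve the same organelle, passed in edgeR about as often as all genes with both directions pooled. The 7 pathway lists named 109 genes, of which 107 were tested. None passed as higher in KO livers, beside 1.72% of all genes. As lower 4 passed, or 3.74% of those tested, beside 2.09% of all genes. In either direction the share over all genes was 3.82%. At an unadjusted p under 0.05 there were 25, 3 higher and 22 lower, while 21.2% of all tested genes had such a p. DESeq2 called 13 (2 higher, 11 lower) and limma-voom 4 (0 higher, 4 lower). Over all 13706 tested genes DESeq2 called 1172 (548 higher, 624 lower) and limma-voom 562 (260 higher, 302 lower). Scaled by library totals only, the 4 lower genes missed the threshold (adjusted p 0.1139 to 0.1405) and 1 gene was higher, Vmp1, an autophagy gene of the endoplasmic reticulum (log2 fold change 0.51, edgeR adjusted p = 0.03258). With the number range as covariate 3 genes passed: Pmpcb and Atg5 as lower, and as higher the mitophagy receptor gene Bnip3l (log2 fold change 0.22, adjusted p = 0.04299). Vmp1 and Bnip3l were named after their values were seen. The median log2 fold change of the listed genes was -0.07 and 70.1% were below 0, against a median of 0.01 and 48.2% over all tested genes.

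In the mitophagy signalling list, which holds the kinase PINK1, the ubiquitin ligase parkin and their regulators, 1 of 16 passed. That was Vcp, the ATPase that extracts ubiquitinated proteins from membranes, which fell to 255 ± 24.3 CPM in KO livers, against 327 ± 35.8 CPM in WT livers (SD, n = 6 each). Its log2 fold change was -0.36 (SE 0.09, edgeR adjusted p = 0.04981). The call was lost in 10 of 12 fits without 1 library, and with the number range as covariate (-0.32, adjusted p = 0.07698). DESeq2 and limma-voom each called 1 of the 16, and 5 had an unadjusted p under 0.05, all lower. Of all 13706 tested genes, 3.82% passed in edgeR and 21.2% had an unadjusted p under 0.05, while DESeq2 called 1172 and limma-voom 562. Pink1 was at -0.23 (adjusted p = 0.1345) and Park2, the parkin gene, at -0.40 (adjusted p = 0.3639), both named after their values were seen.

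Of 13 tested autophagy receptors, some of them recruited by NIPSNAP1 and NIPSNAP2 in human cells, 0 passed in edgeR, DESeq2 or limma-voom, and 0 had an unadjusted p under 0.05, while Bnip3l passed with the number range as covariate. Those with the smallest p were Fkbp8 at -0.20 (edgeR adjusted p = 0.3406) and Fundc1 at 0.13 (adjusted p = 0.4891). Sqstm1, the p62 gene, was at -0.12, Nbr1 at -0.04, Tax1bp1 at -0.02 and Wdfy3, the ALFY gene, at 0.11, all named after their values were seen. The 5 ATG8 genes likewise gave 0 calls with each tool and 0 at an unadjusted p under 0.05. Among them Map1lc3a was at 0.18 and Gabarapl1 at 0.15 (edgeR adjusted p = 0.306 and 0.407).

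Of 24 core autophagy genes 1 passed, Atg5, a part of the conjugation machinery that lipidates ATG8 proteins. It fell to 44.4 ± 1.7 CPM in KO livers, against 52.7 ± 4.1 CPM in WT livers (log2 fold change -0.25, SE 0.06, edgeR adjusted p = 0.04714), and the call was lost in 11 of 12 fits without 1 library. DESeq2 called 5 of the 24, Wipi1 (0.54) and Vmp1 (0.47) as higher and 3 as lower, beside 1172 of all 13706 tested genes. By limma-voom 1 was called, beside 562 of all genes. At an unadjusted p under 0.05 there were 7 (2 higher, 5 lower), beside 21.2% of all genes, and in edgeR 3.82% of all genes passed. In the branched-chain ketoacid dehydrogenase list 0 of 7 passed in edgeR, DESeq2 or limma-voom, and 1 had an unadjusted p under 0.05. This was Dbt, the gene of the E2 subunit, at 0.43 (SE 0.15, edgeR adjusted p = 0.1162). Without KO 602 it was at 0.53 with an adjusted p of 0.02219. Bckdk, the kinase that inactivates the complex, was at -0.16 (adjusted p = 0.3368).

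Of 20 genes of mitochondrial import and matrix proteolysis 1 passed, Pmpcb, a subunit of the peptidase that removes targeting sequences of imported proteins. It fell to 77.6 ± 5.8 CPM in KO livers, against 96.1 ± 5.7 CPM in WT livers (SD, n = 6 each; log2 fold change -0.31, SE 0.07, edgeR adjusted p = 0.02531). The call was lost in 4 of 12 fits without 1 library. DESeq2 called 3 of the 20, limma-voom 1, and 4 had an unadjusted p under 0.05, all lower. Of 22 genes of mitochondrial content and upkeep 1 passed, Sod2, the matrix superoxide dismutase, which fell to 121 ± 13.2 CPM in KO livers, against 151 ± 8.6 CPM in WT livers (log2 fold change -0.32, SE 0.08, edgeR adjusted p = 0.04455). That call was lost in 11 of 12 fits without 1 library, and with the number range as covariate (-0.31, adjusted p = 0.05561). DESeq2 called 4 of the 22, Cs, Vdac1, Vdac3 and Sod2, limma-voom 1, and 8 had an unadjusted p under 0.05, all lower. Beside both lists, 3.82% of all 13706 tested genes passed in edgeR and 21.2% had an unadjusted p under 0.05. DESeq2 called 1172 of them and limma-voom 562. Medians of the 7 lists ran from -0.13 for mitochondrial content to 0.00 for receptors and ATG8 genes.

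**Figure D5:**
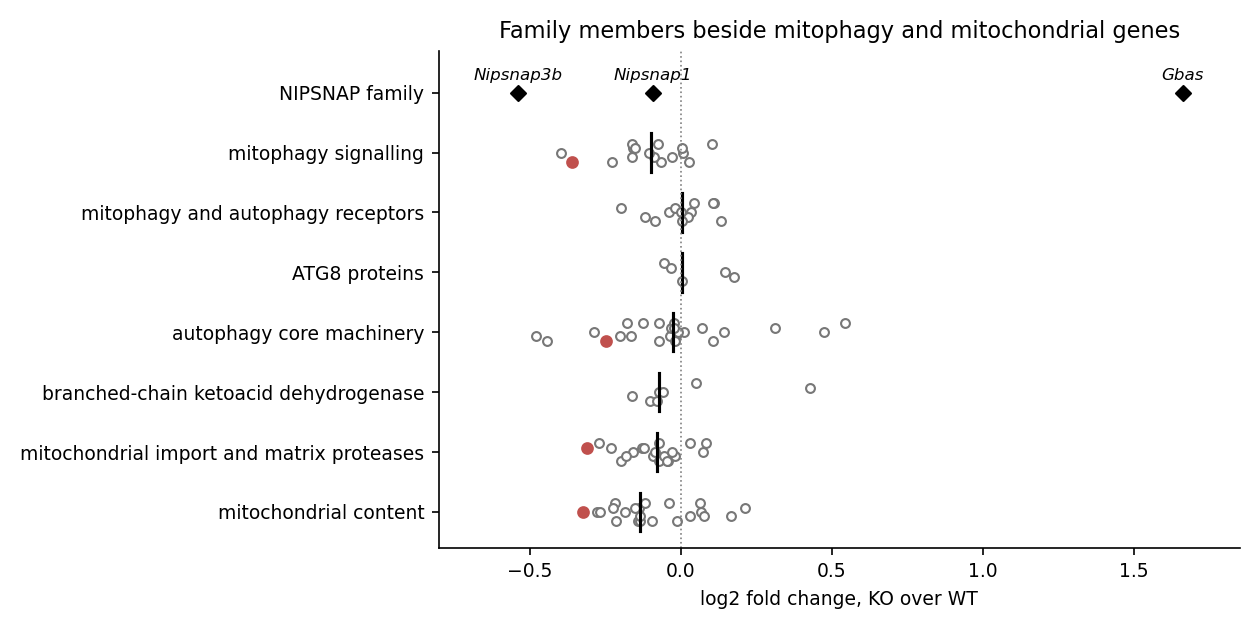
Log2 fold change, KO over WT, of the family members (diamonds) and of the tested genes of 7 pathway lists (circles), with a black bar at each list's median and red for genes past an adjusted p of 0.05. The listed genes lie between -0.48 and 0.54 with 4 of 107 in red, all below 0. Gbas, which was chosen by this contrast, lies at 1.66.

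The genes most like each member across the 12 libraries were found by Pearson's r of log2 CPM over 9048 genes with a mean of at least 5 CPM, with no test. The points share libraries and genotype groups, so a gene that differs between genotypes scores high for that reason alone. Among those most like Gbas were Cyp2b9, a cytochrome P450 gene (r = 0.942), Phkb, a regulatory subunit of phosphorylase kinase (0.941), Mob1a (0.927) and the carbonic anhydrase gene Car2 (0.909). With each genotype's mean subtracted, none of these led, and the first were Hprt (0.921), Coq7 (0.909), Ugt1a9 (0.890), Utp20 (0.887) and Stag1 (0.886). Among those most like Nipsnap3b were Ywhab (0.951), Ndnl2 (0.945), Ept1 (0.943) and Chpf2 (0.932). With genotype means subtracted they were Tmppe (0.930), Pgap1 (0.909), Scyl3 (0.904), Crot (0.898) and Klhl20 (0.892).

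For Nipsnap1, 3 of the 5 leading genes were the same with and without the genotype means. Its log2 fold change was -0.09, so subtracting the means changed its values little and such an overlap was likely beforehand. Pccb, the beta subunit of mitochondrial propionyl-CoA carboxylase, came first both ways (r = 0.966 and 0.961), Fbxw4 second (0.956 and 0.951), and Aadac was also among the 5 both times (0.915 and 0.916). The rest were the matrix protease gene Lonp1 (0.888) and the complex I subunit gene Ndufb8 (0.885) over all libraries, and Polg2 (0.943) and Ugt2a3 (0.919) with the means subtracted.

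In bulk liver RNA, fewer cells of a type and less RNA per cell cannot be told apart. Hepatocyte markers were at 79212 to 98795 CPM in sum in KO livers and 86729 to 108526 CPM in WT livers. All 7 were below 0, with a median log2 fold change of -0.10. Of these, 0 passed the threshold in edgeR, DESeq2 or limma-voom, and 2 had an unadjusted p under 0.05. All 11 Kupffer cell and macrophage markers were above 0 with a median log2 fold change of 0.69 and 0 past the threshold in edgeR (10 at an unadjusted p under 0.05, 3 in DESeq2, 0 in limma-voom). Their sum was 138 to 491 CPM in KO livers and 134 to 222 CPM in WT livers. Of 11 stellate cell markers 2 rose (18.2%), Pdgfrb (0.43) and Lrat (0.68), and all 11 were above 0 with a median of 0.50. DESeq2 called 3 of them, limma-voom 3, and 6 had an unadjusted p under 0.05. Their sums were 276 to 375 CPM in KO livers and 161 to 290 CPM in WT livers. Of 10 endothelial markers 1 rose (10%), Stab2 (0.48), and all 10 were above 0 with a median of 0.20. DESeq2 called 1 of them, limma-voom 1, and 2 had an unadjusted p under 0.05. Their sums were 267 to 323 CPM in KO livers and 171 to 330 CPM in WT livers. Over all 13706 tested genes 3.82% passed in edgeR and 21.2% had an unadjusted p under 0.05. DESeq2 called 1172 of them and limma-voom 562. Striated muscle and heart, where NIPSNAP2 is also abundant, gave 3.40 to 4.98 CPM over 7 markers in KO livers and 2.56 to 4.34 CPM in WT livers, with Acta1, Ckm, Myh6 and Myl2 at 0 in every library. Nearly all of that sum was Des, which is also a stellate cell marker, at 4.08 CPM in KO livers and 3.56 CPM in WT livers.

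Cholangiocyte markers summed to 28.5 to 515 CPM in KO livers and 34.5 to 121 CPM in WT livers, those of neutrophils and monocytes to 4.92 to 23.9 CPM in KO livers and 3.19 to 8.98 CPM in WT livers, and those of T, B and NK cells to 2.69 to 5.22 CPM in KO livers and 1.32 to 5.19 CPM in WT livers. The highest cholangiocyte sum was that of KO 602, of which 505 CPM was Spp1, and without that library the highest in KO livers was 60.4 CPM. KO 602 also had the highest neutrophil and monocyte sum, and without it the highest in KO livers was 10.9 CPM. None of the 13 tested genes of these lists passed in edgeR or limma-voom, while DESeq2 called 1, of the neutrophil and monocyte list, and 1 had an unadjusted p under 0.05. All 5 tested neutrophil and monocyte markers were above 0, with a median log2 fold change of 0.96. The 3 tested markers of T, B and NK cells were also above 0 (median 0.41), and 4 of 5 cholangiocyte markers were below 0 (median -0.14). The part of other cell types in the differences of Gbas and Nipsnap3b was not tested.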

How the data were processed

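Liver RNA of 6 A1cf -/- and 6 wild-type mice was analysed from 1 deposited table of raw counts per gene name. The authors made these counts with featureCounts 1.5.0-p2 on exons of GENCODE M8, counting fragments without a strand option, per the file headers. STAR, DESeq2 and mm10 are named in the submitters' processing notes. Each gene's exonic length, another deposited value, gave FPKM.

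In R 4.3.3, edgeR 4.0.16 kept genes by filterByExpr (minimum count 10), scaled by TMM and fitted a robust quasi-likelihood model (KO over WT) with genotype as the only term, adjusted by Benjamini and Hochberg over 13706 genes at 0.05. "Rose" and "fell" mean past that threshold. SE is the log2 fold change divided by the square root of F, and log2 CPM used a prior count of 2. The 30 within-group library pairs each differed by more than counting error, with a chi-square of 16.6 to 301 for each degree of freedom. The steps were tested on simulated data. Floors cover counting error only.

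Members and lists were chosen with earlier results of these data known. By rule, the text names all NIPSNAP genes, A1cf, up to 6 nearest tested neighbours of each member, up to 4 called genes per list (2 of the smallest p where none was called) and the 5 genes most like each member, of which some are not reported here. Alternatives were DESeq2 1.42.0, voom in limma 3.58.1, RLE factors, library totals, no filter or one at a mean of 1 CPM, the number range as covariate, libraries 573 to 602 only and each library left out.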

Additional observations from a re-analysis of the deposited data

How the results depend on the processing

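The log2 fold changes of the members kept their direction under all 20 alternatives. Gbas was between 1.61 and 1.83, Nipsnap1 between -0.14 and -0.04 and Nipsnap3b between -0.60 and -0.49. For Gbas and Nipsnap3b, chosen by this contrast and with groups that did not overlap, a kept direction was likely beforehand. Counts of calls moved more. Over all genes, 523 passed, against 1172 in DESeq2, which include all 523, 57 with libraries 573 to 602 only (fewer livers; 45 shared), and 266 to 638 with 1 library left out. The lowest were without WT 777 (266), WT 778 (294), WT 573 (312), KO 574 (315), KO 588 (319) and KO 591 (324). Scaling by library totals only gave 266 higher and 139 lower, against 236 higher and 287 lower, with the median of all genes shifted by 0.0466 on the log2 scale. Of the listed pathway genes 4 passed, against 1 with library totals only, 0 without a low-count filter, 13 in DESeq2, 0 with libraries 573 to 602 only and 0 to 4 with 1 library left out (0 without WT 573, WT 777 or WT 778). Of the neighbouring genes 1 passed, against 3 in DESeq2, 0 with libraries 573 to 602 only and 0 to 2 with 1 library left out. The cause was not tested.

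Neighbours near 0 changed sign without a call: Mrps17 to -0.0095 with libraries 573 to 602 only, Psph to 0.012 with library totals only and between -0.074 and 0.040 with 1 library left out, Zfp11 to 0.010 with library totals only, 0.048 with the number range as covariate and between -0.13 and 0.087 with 1 library left out, Zmat5 to 0.0063 with library totals only and between -0.075 and 0.0082 with 1 library left out, and Uqcr10 to -0.018 with the covariate and between -0.043 and 0.052 with 1 library left out. Calls were gained by Sumf2 in DESeq2 (adjusted p = 0.02576) and by Thoc5 without WT 590 (adjusted p = 0.04523). The labels give no pairing of KO with WT livers, so no paired analysis was run. Pmpcb lost its call without KO 591, WT 573, WT 777 or WT 778. A range of numbers and the genotype are partly confounded, since the second range holds 1 KO liver. At 350 or more counts in each library, counting error was a small part of the spread of every member.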
